A study of Caenorhabditis elegans with 2 samples.

Results

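The optimal peak list of this MDL-1 ChIP-seq experiment held 1076 peaks, and 237 of them lay on the X chromosome without CACGTG in the 101 bp window that reaches 50 bp to each side of the summit. CACGTG is the canonical E-box, and the summit is the position that the authors' peak caller marked as the highest point. Beyond membership of the list, the rule used only the chromosome and this hexamer. A further 59 X peaks held the E-box, and the autosomes held 602 peaks without it and 178 with it. Peaks without the E-box were thus the larger class on X and on the autosomes alike. In the broader pooled list, 5783 of 5990 X regions, or 96.5%, lacked the hexamer in the same window.

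The material was whole larvae of strain OP355 at the L2 stage, of mixed sex and unstated age, in 2 biological replicates of 1 group. All larvae were mutant for unc-119(tm4063) and carried wgIs355, a transgene insertion that targets mdl-1. One label names KLU-1 as the protein that carries the GFP-FLAG tag, while the antibody, strain and experiment labels name MDL-1, so the target rests on the latter. No second condition, untagged strain or tissue was compared, and in whole animals a strong peak in few cells and a weak peak in many cannot be told apart.

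MDL-1 is the worm's Mad-type bHLH-Zip factor. It pairs with the Max-like protein MXL-1 and the pair recognises the E-box CACGTG, acting in a network with the Myc- and Mondo-like protein MML-1 and its partner MXL-2 that bears on lifespan. The X chromosome is itself a special target in worms. In hermaphrodites a condensin-containing dosage compensation complex loads onto both X chromosomes at recruitment sites and lowers transcription from each, and those recruitment sites carry a motif enriched on X whose core includes the letters GCGCAGGG.

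The summit windows of the 8 strongest members are printed first, because they show the sequence under the strongest signal in the class. They are plus strand ce11 sequence from the RefSeq genome, 5′ to 3′. Capitals mark GAGAGA or the words CACGCG and AGACGCAG and also GCGCAGGG and GCGAAGGG on either strand, since the results below turn on them.
epn-1 promoter (rank 7), chrX:14818923-14819023: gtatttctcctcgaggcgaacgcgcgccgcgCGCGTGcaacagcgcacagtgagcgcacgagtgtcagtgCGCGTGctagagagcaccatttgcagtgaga
mdl-1 intron (rank 8), chrX:6743013-6743113: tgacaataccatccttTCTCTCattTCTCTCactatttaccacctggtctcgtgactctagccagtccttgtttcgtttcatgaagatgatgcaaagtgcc
Beside mdl-1 (rank 12), chrX:6740707-6740807: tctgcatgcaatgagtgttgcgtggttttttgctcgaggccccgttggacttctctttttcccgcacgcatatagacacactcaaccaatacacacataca
nipi-3 promoter (rank 15), chrX:15607614-15607714: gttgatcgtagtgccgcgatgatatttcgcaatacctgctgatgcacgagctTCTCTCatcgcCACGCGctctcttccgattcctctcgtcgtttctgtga
Near F20B6.9 (rank 26), chrX:4209247-4209347: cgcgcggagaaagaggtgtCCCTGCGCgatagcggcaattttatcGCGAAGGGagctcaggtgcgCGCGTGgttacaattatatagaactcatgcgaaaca
Beside mdl-1 (rank 28), chrX:6739742-6739842: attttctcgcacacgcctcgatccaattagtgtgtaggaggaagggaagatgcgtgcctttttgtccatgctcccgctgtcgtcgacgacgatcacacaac
zfp-3 promoter (rank 29), chrX:1446929-1447029: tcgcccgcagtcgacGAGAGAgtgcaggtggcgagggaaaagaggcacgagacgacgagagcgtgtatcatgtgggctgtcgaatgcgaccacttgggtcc
Near sma-9 (rank 32), chrX:10766342-10766442: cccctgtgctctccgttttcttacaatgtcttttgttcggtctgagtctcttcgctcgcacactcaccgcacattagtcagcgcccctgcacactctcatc
Of these 8 windows, those of ranks 8, 15 and 29 held GAGAGA, those of ranks 7, 15 and 26 held CACGCG, and those of ranks 12, 28 and 32 held none of the marked words. The window of rank 26 held both GCGCAGGG and GCGAAGGG. E-boxes of the general form CANNTG other than CACGTG, which the capitals do not mark, were in 4 of the 8 windows, those of ranks 7, 8, 26 and 29. The marked words occurred in different peaks, and 114 of the 237 members held none of GAGAGA and the words CACGCG and AGACGCAG and GCGNAGGG, where N is any base.

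Member signal ran from 48.3 to 585 in the authors' units, with a median of 71.9 and quartiles of 57.1 and 118. The median was 70.3 for autosomal peaks without the E-box, 85.1 for X peaks with it and 86.9 for autosomal peaks with it. The members were thus close to their autosomal counterparts at the middle of the distribution, and both kinds without the E-box had lower medians than both kinds with it. Among the 100 strongest peaks of the list were 26 members, which is 11.0% of the members, against 40 autosomal peaks without the E-box, or 6.64% of those, 13 X peaks with it, or 22.03%, and 21 autosomal peaks with it, or 11.8%. Because the list is a ranking by signal, these are descriptions with no test. Members numbered 13.4 per Mb of X, against 7.29 per Mb for autosomal peaks without the E-box, a ratio of 1.83. Every megabase of X held members, from 7 to 21.

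**Figure D1:**
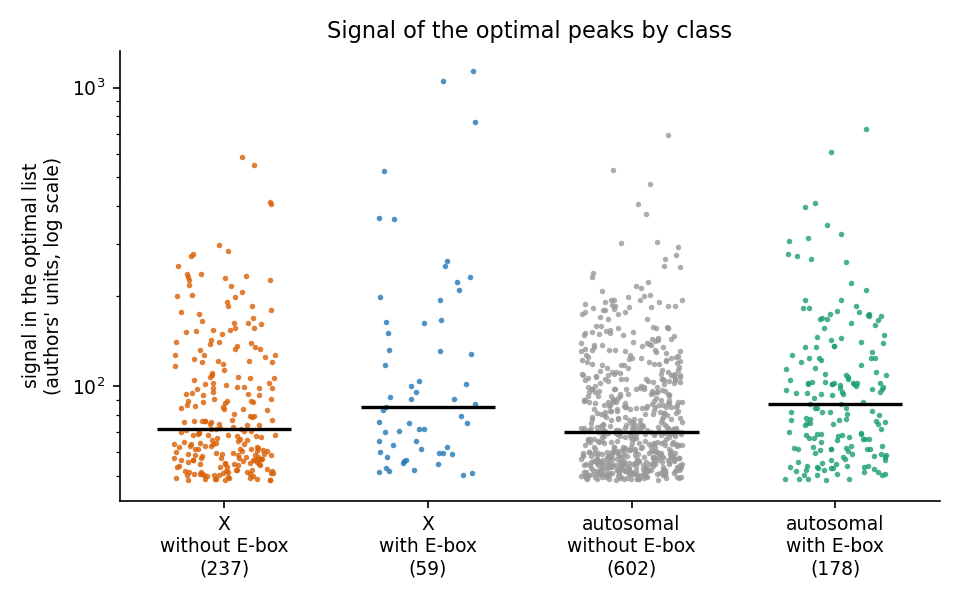
Signal of each optimal peak on a log axis, in the authors' units, for 4 classes of peak, with a bar at each median. The 237 X peaks without the E-box have a median of 71.9 and the 602 autosomal peaks without it a median of 70.3, both under the medians of the E-box classes.

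The edges of the rule were not sharp in signal. The 3 weakest members had signals of 48.5, 48.3 and 48.3, and the next 3 X regions without the E-box in the pooled list, just outside the optimal list, had 48.0, 48.0 and 47.9. On the sequence side, 13 members had some base of an E-box within 100 bp of the summit without holding the whole hexamer in the window, with a median signal of 74.1. Just inside the limit, 16 X peaks had their E-box centred 26 bp or more from the summit, with a median of 91.3. The peaks of 20 members held the hexamer outside the window, and 36 members had one within 500 bp of the summit. For most members no E-box was close at all, since 172 had none within 1000 bp.

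Members at the mdl-1 locus stood apart in signal. Within 20 kb of mdl-1 there were 11 members, with signals from 90.6 to 551 and a median of 175, and they made up 10.1% of the summed member signal. The transgene targets mdl-1, so native and added copies of its sequence cannot be told apart here. How much of the 20 kb to each side the added copies carry was not measured. Without these 11 the median of the other 226 members was 70.3, and the results below are given without them where that changed a call or a direction.

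Every member overlapped a region in both replicates' full lists of 30000. When each replicate's list was held to its 1076 strongest regions, 194 members were found in replicate 1 and 189 in replicate 2. In both were 158 members, 66.7% (95% exact interval 60.3 to 72.6), while 12 were in neither. The autosomal peaks without the E-box gave 62.6% (58.6 to 66.5) and the X peaks with it 66.1% (52.6 to 77.9), so the intervals overlapped. Among the 118 members in the upper part of the list, the 538 strongest peaks, 97.5% were in both. The median distance between the member summit and the replicate's own summit was 11 bp in replicate 1 and 10 bp in replicate 2. Spearman's rho of the replicate signals was 0.67 across the 237 members and 0.64 without the mdl-1 window, against 0.54 across autosomal peaks without the E-box. This is a description across peaks, which were chosen on the signal of both libraries and which are not independent replicates.

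**Figure D2:**
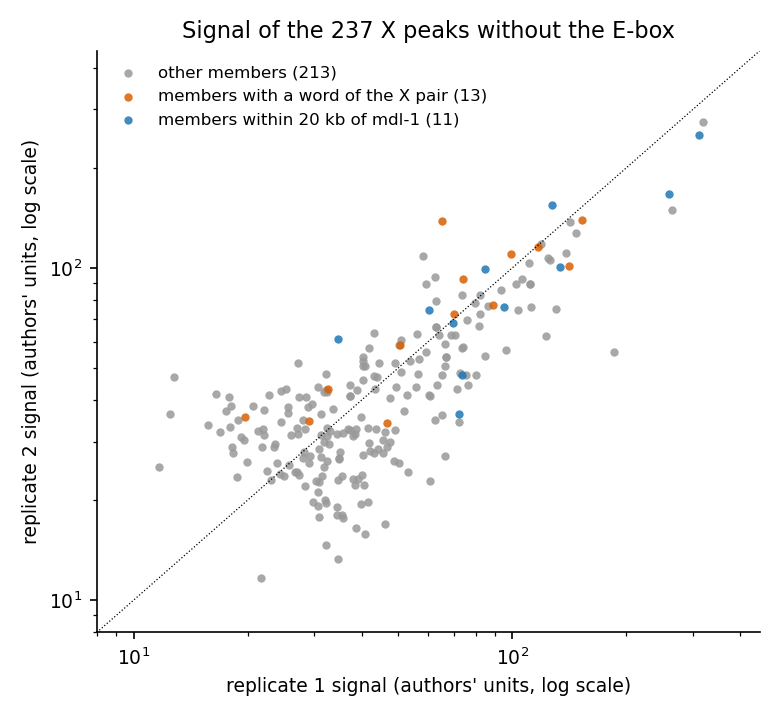
Replicate 1 against replicate 2 signal for each of the 237 members, both on log axes in the authors' units, with the line of equality dotted. The 11 members within 20 kb of mdl-1 and the 13 members that hold GCGCAGGG or GCGAAGGG are marked, and most of both sets lie in the upper part of the cloud, although 4 of the 13 lie below the 100 strongest members.

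The 20 strongest members show the range of places that the class occupied. The strongest was in the promoter of epn-1, the gene of the epsin that links cargo to clathrin coats, at chrX:14818809-14819143. It had a signal of 585 in the pooled list, of 319 in replicate 1, where it ranked 6, and of 275 in replicate 2, where it ranked 7. Its summit lay 459 bp from the nearest epn-1 start, in intergenic sequence, and its window had a GC content of 62.4%. Both libraries thus placed this peak near the top of the genome.

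The next 2 lay at mdl-1 itself. One was in an intron of mdl-1 at chrX:6742852-6743201, with a signal of 551 and replicate signals of 312 and 251. The other was intergenic, 1594 bp from the start of mdl-1, with a signal of 415 and replicate signals of 259 and 167. Ranks 28 and 45, with signals of 283 and 234, were also intergenic beside mdl-1. These 4 are among the members that the transgene's copies may reach.

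The promoter of nipi-3, which encodes a Tribbles-like pseudokinase of innate immunity, held the fourth strongest member at chrX:15607546-15607804. Its signal was 407, with 264 in replicate 1 and 149 in replicate 2. Other promoter members of the 20 belonged to zfp-3 (277), serp-1.1 (253), nspc-17 (237), C09B7.2 (230) and tatn-1 (207), the tyrosine aminotransferase gene, and for each of these 5 both replicates gave a signal of at least 89.3. Promoter peaks thus made up 7 of the 20.

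The other members of the 20, apart from the 4 at mdl-1, were farther from any protein-coding start. The member nearest to F20B6.9 (signal 296) lay 1812 bp from its start, and the one nearest to sma-9, which encodes a Schnurri-like factor of TGF-beta signalling, lay 2890 bp away (signal 272). Those nearest to C30E1.4 (236), W02H3.3 (232), pigx-1 (226) and nhr-1 (226), a nuclear hormone receptor gene, were 5826, 3959, 3708 and 8106 bp from the start. The one nearest to nhr-14, another receptor gene, was 1474 bp away (217), and the one nearest to xol-1, the master switch gene of sex determination and dosage compensation, was 4909 bp away (201). One more lay in an intron of mom-1, the Porcupine gene of Wnt secretion (216).

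**Figure D3:**
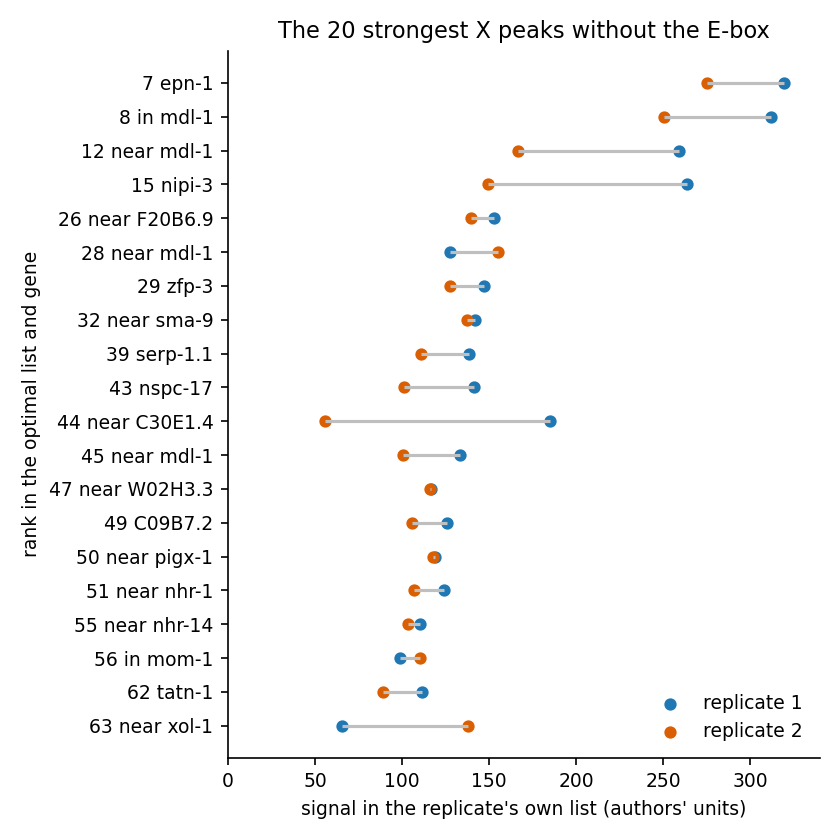
Signal in each replicate's own list, in the authors' units on a linear axis from 0, for the 20 strongest members, named by rank in the optimal list and by the promoter gene, the gene that holds the summit or the nearest gene. The widest gaps between replicates are those of rank 44 near C30E1.4 (185 and 55.9), rank 15 at nipi-3 (264 and 149), rank 12 beside mdl-1 (259 and 167) and rank 63 near xol-1 (65.2 and 138).

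Rank 44 was carried mostly by replicate 1, where it ranked 21 against 244 in replicate 2. Rank 63 was carried mostly by replicate 2, where it ranked 25 against 242. Its neighbour, the member of rank 469, has its summit 201 bp away and overlapped the same replicate 1 region, so that the 65.2 of replicate 1 is 1 value for both. In all, 10 members overlapped another member. The pairs of ranks 62 and 890, 189 and 680, 244 and 718, and 560 and 668 had the same values in both replicates. Rank 890, with a signal of 54.3, thus has the replicate values of rank 62, 111 and 89.3. Such pairs enter the replicate counts and Spearman's rho above with shared values.

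By annotation most member summits were intergenic. Promoter windows were counted apart from this, so that a summit could be both intergenic and in a promoter window. A promoter window reached from 1000 bp upstream to 200 bp downstream of a protein-coding start, and 121 member summits, 51.1% (44.5 to 57.6), lay in one, against 51.3% (47.3 to 55.4) of autosomal peaks without the E-box (adjusted exact p = 1.0, two-sided Fisher's exact test, adjusted over 15 annotation classes). Of the 15 classes, 13.3% differed. Peaks are the units of these tests, not replicates of a condition, and the value in each replicate's own list is given beside a call. The promoter difference was -0.27 percentage points, and it was 1.33 without the mdl-1 window. Promoter windows covered 21.8% of X and 27.1% of the autosomes, below the share of summits in both kinds of peak.

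Summits lay in intergenic sequence for 148 members, 62.4% (55.9 to 68.6), against 54.7% of autosomal peaks (exact p = 0.0441, adjusted exact p = 0.11). Introns held 53 members, 22.4% (17.2 to 28.2), against 30.2% (exact p = 0.0262, adjusted exact p = 0.11). Neither difference passed the threshold. Genes of other biotypes held 30 members and 5′ UTRs held 6. Coding exons held 0 of 237 members, which allows a share of up to 1.27% by the rule of 3 counts of the total and of 1.54% by the exact 95% bound, against 11 of 602 autosomal peaks (adjusted exact p = 0.11), although coding exons covered 19.97% of X. In the replicates' own lists 4 of 238 and 7 of 245 X summits without the E-box lay in a coding exon.

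Small RNA genes gave both of the differences that passed. A tRNA gene stood within 200 bp of 10 member summits, 4.22% (2.04 to 7.62), against 3 autosomal summits, 0.498% (adjusted exact p = 0.0051). The replicates' own lists gave 12 of 238 and 17 of 245, against 0.645% and 0.799% of autosomal peaks. X is rich in tRNA genes, with 276 against 336 on all autosomes together, and sequence within 200 bp of one made up 0.680% of X and 0.185% of the autosomes. Relative to that sequence the share was 6.20 times on X and 2.70 times on the autosomes. The 10 members were weak, with a median signal of 56.4 and a highest of 90.2, and among the 538 strongest peaks the difference did not pass (1.69 percentage points, adjusted exact p = 0.34).

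snoRNA genes, which guide the modification of ribosomal RNA, went the other way. One of the 237 members, 0.42% (0.0107 to 2.33), had a snoRNA gene within 200 bp, against 28 autosomal summits, 4.65% (adjusted exact p = 0.0089). Each replicate's own list also held 1 such X peak. Sequence near snoRNA genes made up 0.101% of X and 0.199% of the autosomes. snRNA genes, which encode spliceosomal RNAs, were near 0 members and 11 autosomal peaks (adjusted exact p = 0.11). Other annotated ncRNA genes, many of them short and overlapping, were within 200 bp of 59 members, 24.9%, and of 19.8% of autosomal peaks (adjusted exact p = 0.23).

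**Figure D4:**
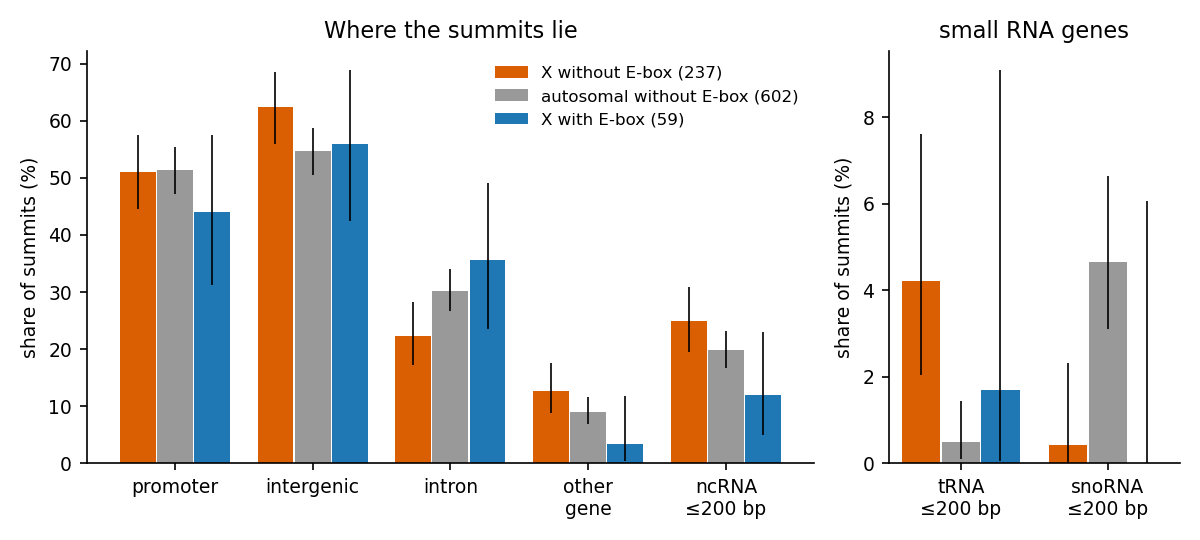
Share of summits in each annotation class, or within 200 bp of a class of RNA gene, for the members and the classes most like them, with 95% exact intervals on axes from 0. Members and autosomal peaks without the E-box have like promoter shares (51.1% and 51.3%), while the tRNA share is higher (4.22% against 0.498%) and the snoRNA share lower (0.42% against 4.65%) in the members.

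The windows of the 3 strongest members near a tRNA gene are shown for their content, with the same words in capitals.
In sulp-3 (rank 388), chrX:8404345-8404445: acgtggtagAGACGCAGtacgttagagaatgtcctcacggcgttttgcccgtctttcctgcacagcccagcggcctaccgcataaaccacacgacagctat
Near xol-1 (rank 469), chrX:8036555-8036655: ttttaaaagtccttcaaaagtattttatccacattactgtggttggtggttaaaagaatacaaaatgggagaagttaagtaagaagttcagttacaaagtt
C28G1.2 promoter (rank 606), chrX:8836020-8836120: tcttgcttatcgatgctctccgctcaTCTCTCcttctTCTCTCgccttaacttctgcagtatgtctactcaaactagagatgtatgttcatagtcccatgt
The window of rank 388 held AGACGCAG and that of rank 606 held GAGAGA, while that of rank 469 held none of the words. The summit of rank 606 lay in the 5′ UTR of C28G1.2 and in promoter windows as well. Only 2 of the 10 tRNA members were in a promoter window.

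The 121 promoter members reached 121 protein-coding genes, 4.43% (3.69 to 5.27) of the 2731 on X, while autosomal peaks without the E-box reached 2.20% of 17242 genes. The 2 counts of 121 coincide because 8 members lay in the windows of several genes and 7 genes had more than 1 member. A promoter peak with the E-box was found for 29 X genes, and 2 X genes had both kinds. Away from promoters, 109 members were more than 1 kb and 20 more than 5 kb from the nearest start.

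Clathrin-mediated endocytosis was the gene list with the highest share of its X genes reached. Of its 5 X genes, 4 had a member in the promoter window, each with a peak of its own, against 4.43% of all X genes. After epn-1 (585) these were dpy-23, which encodes the mu subunit of the AP-2 adaptor, with a signal of 69.9, the dynamin gene dyn-1 with 58.6 and aps-2, the AP-2 sigma subunit gene, with 48.7. The replicate signals were 43.8 and 32.8 for dpy-23, 46.1 and 32.2 for dyn-1, and 11.7 and 25.16 for aps-2. The last ranked 7866 in replicate 1 and 1173 in replicate 2, so it was outside the 1076 strongest of both. The lists were written with earlier results of these data known, and their counts are given without a test.

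Immune and timing genes had members too. In these 2 lists promoter members reached 50% and 40% of the X genes, against 4.43% of all X genes. With 4 and 5 X genes in the lists, 1 gene moves the share far. Of 4 X genes in the p38 and C/EBP list, nipi-3 (407) and cebp-1 had one, and cebp-1 encodes a C/EBP-type bZIP factor that acts with NIPI-3. The cebp-1 signal was 109, with 53.7 in replicate 1 and 52.3 in replicate 2. Of 5 X heterochronic genes, which set the timing of larval development, ain-1 and lin-14 had a promoter member. ain-1 encodes a GW182-type cofactor of microRNA silencing, and its signal was 185 (111.8 and 76.0 in the replicates). lin-14, which encodes a nuclear protein of early larval fates, had a promoter member of 67.6 (43.1 and 27.7) and 3 further members inside the gene, the strongest at 133. lin-14 and myrf-2, with 3 each, held more members within the gene than any other X gene. Of the 3 in myrf-2, those of ranks 244 and 718 matched the same region in each replicate's list. Gene length was not taken into account. kin-20, a casein kinase gene, held 2.

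Of 27 nuclear hormone receptor genes on X, 5 had a promoter member, 18.5% against 4.43% of all X genes. Their signals were 162 for nhr-1, 140 for nhr-48, 87.8 for nhr-14, 74.2 for nhr-3 and 71.8 for nhr-35, the last of them named only to complete the count. Replicate 1 gave 93.4 and replicate 2 gave 85.98 for nhr-1. The replicates differed most for nhr-3, with 27.1 and 51.9.

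Metabolic and housekeeping lists held 1 or 2 each. The shares of X genes reached in the lists of this paragraph ran from 16.7% to 50%, against 4.43% of all X genes. With 2 to 8 X genes per list, 1 gene moves the share far. Among 6 X genes of autophagy and the vacuolar ATPase, epg-7, an autophagy scaffold gene, had a signal of 106 and vha-12, a V-ATPase subunit gene, 76.0. Among 8 of glycolysis and the citric acid cycle, the succinyl-CoA ligase gene sucl-1 had 75.8 and the succinate dehydrogenase gene sdha-1 62.8. The 14-3-3 gene ftt-2 (121) was 1 of 6 X genes in insulin to DAF-16 signalling. The ribosomal protein gene rpl-11.2 (88.0) was 1 of 2 and the elongation factor gene eef-1A.2 (154) was 1 of 3. One of 4 dosage compensation genes on X, sdc-1, had a promoter member, with a signal of 76.4 and replicate signals of 32.2 and 43.0.

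Counts in the other lists were 1 or 0. One of 34 X neuropeptide genes (ins-39, an insulin-like peptide gene, 101), 1 of 13 sarcomere genes (act-4, an actin gene, 58.5) and 1 of 12 synaptic genes (syd-2, the liprin-alpha gene, 65.4) had a promoter member, which is 2.94%, 7.69% and 8.33% of those lists. The count was 0 of 30 cuticle collagen genes, 0 of 34 chemoreceptor genes, 0 of 22 homeobox genes, 0 of 9 fat metabolism genes, 0 of 8 acetylcholine receptor genes, 0 of 8 other bHLH genes, 0 of 5 histone genes, 0 of 5 Wnt, Notch, TGF-beta and EGF signalling genes, and 0 of 2 each for the hypoxia response and for the Max-like, Mondo, TFEB and SREBP network. Against the 4.43% of all X genes, 0 in lists of at most 34 genes is near the background.

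The sequence under the summits was GC-rich. Median GC content was 51.5% in the member windows, against 34.7% in windows centred 300 bp to the left and 33.7% to the right, and it was 50.5% in autosomal peaks without the E-box. Of 2079 words of 6 letters, both strands merged, 178 were found in more summit windows than left flanks and 142 in fewer (two-sided exact McNemar test, adjusted p under the 0.05 threshold). That is 8.56% and 6.83% of the words. The mean GC content was 72.4% for the first set and 17.8% for the second, so the calls moved with base composition, whose part in them was not tested. Windows of 25 bp to each side gave 53 and 64, the 538 strongest peaks gave 40 and 52, and replicate 2's list alone gave 132 and 88. The strongest call was AAAATT, in 17 summit windows and 78 left flanks (adjusted exact p = 3.74e-09).

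Of the words that were higher, GAGAGA led, in 74 member windows, 31.2% (25.4 to 37.5), against 19 left flanks (adjusted exact p = 1.32e-07) and 11 right flanks. Runs of GA repeats give this word and AGAGAG together. Replicate 1's list gave 64 of 238 and replicate 2's 63 of 245. Autosomal peaks without the E-box held GAGAGA in 41.2%, and the difference did not pass (exact p = 0.0074, adjusted exact p = 0.41). Members with it had a median signal of 70.4 and members without it 72.5. Of the 4 strongest members with GAGAGA, 3 are printed above, and the fourth is the promoter peak of C09B7.2.

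CACGCG was in 37 members, 15.6% (11.24 to 20.9), and in 3 left flanks (adjusted exact p = 2.49e-07). The autosomal share was 14.1%. ACGCAG was in 38 members, 16.03%, and in 3 left flanks (adjusted exact p = 4.92e-07). Its autosomal share was 27.1%, a difference that did not pass (exact p = 0.000628, adjusted exact p = 0.15).

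Of the 9 other words of the form CANNTG, the general E-box, CACATG was called. It was in 29 members, 12.2% (8.35 to 17.1), against 4 left flanks (adjusted exact p = 0.000167) and 9.47% of autosomal peaks, but 13 right flanks held it, and against that side no CANNTG word passed. Other E-boxes ranged from 2 members (CATATG) to 14 (CAACTG). Any of the 9 was in 83 members, 35.0%, and in 25.7% of left flanks. Members without the canonical E-box were thus mostly without any other.

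Longer words sharpened this. In a scan of all 32870 words of 8 letters, added after the 6-letter results were seen, AGACGCAG was in 22 members, 9.28% (5.91 to 13.7), and 0 left flanks (adjusted exact p = 0.0157). GAGACGCA, which overlaps it, was in 23 members and 1 left flank (adjusted exact p = 0.049), and in 18.4% of autosomal peaks. These 2 calls are 0.00608% of the words. Members with AGACGCAG had a median signal of 87.3, against 69.9 without it, and lower quartiles of 73.3 and 56.8. The upper quartiles, 110 with it and 119 without it, and the means, 96.5 and 101, had the other order.

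**Figure D5:**
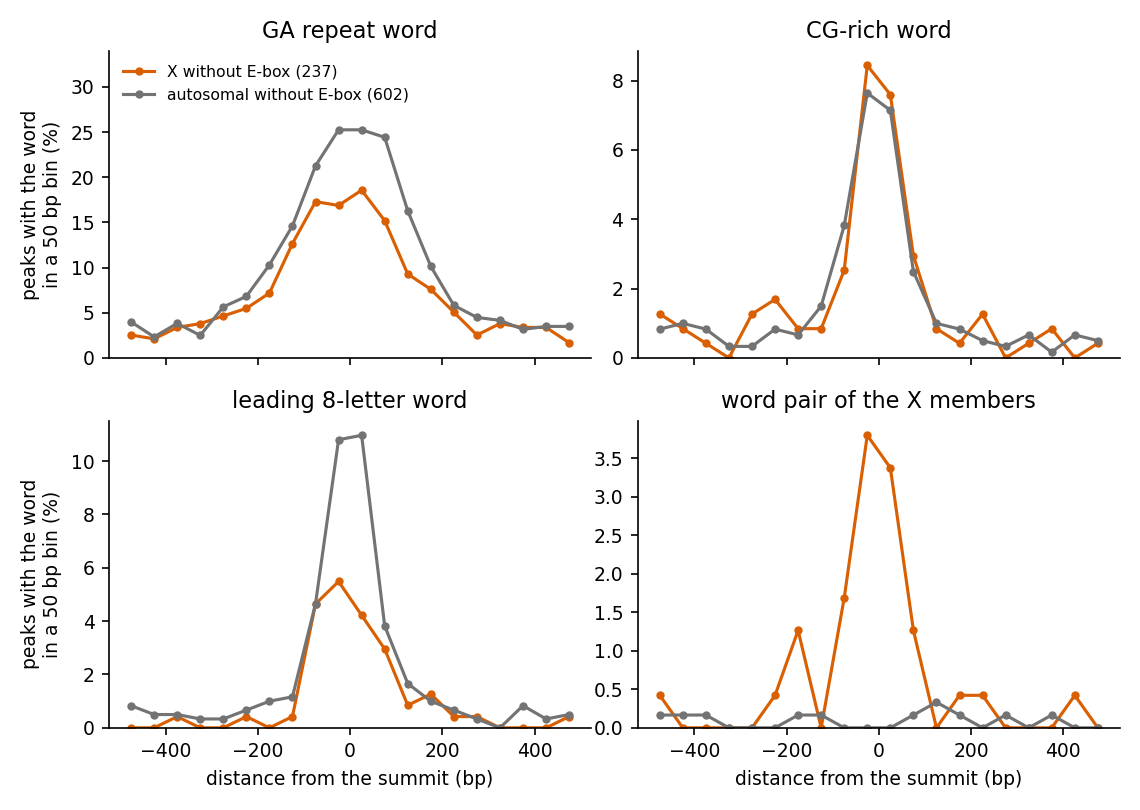
Share of peaks with a word in each 50 bp bin, by distance from the summit, for members and autosomal peaks without the E-box, with each vertical axis starting at 0. The panels show GAGAGA (the GA repeat word), CACGCG (the CG-rich word), AGACGCAG (the leading 8-letter word) and GCGCAGGG or GCGAAGGG (the word pair of the X members). All 4 have their highest member bin beside the summit, and the pair is near 0 at autosomal summits. In the 4 bins from -100 to 100 bp, members hold GAGAGA in 17.3%, 16.9%, 18.6% and 15.2%, a nearly flat course. For AGACGCAG the member shares are 4.64%, 5.49%, 4.22% and 2.95%, against 4.65%, 10.8%, 11.0% and 3.82% in the autosomal peaks. The words were chosen on the summit windows of these same peaks, so the shapes are a description and no test.

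Compared with autosomal peaks without the E-box, the members held CGCAGA less often. It was in 25 members, 10.5% (6.94 to 15.2), and in 146 autosomal peaks, 24.3% (20.9 to 27.9), with an adjusted exact p of 0.0088 (two-sided Fisher's exact test over 2079 words). This was 0.0481% of the words. The replicates' lists gave 9.66% against 23.9% and 9.39% against 22.2%. X peaks with the E-box held CGCAGA in 7 of 59, 11.9% (4.91 to 22.9), and autosomal peaks with the E-box in 19.7%. The lower share was thus seen in X peaks of both kinds and was not particular to the members. AGACGCAG overlaps this word and gave 9.28% against 20.4% (exact p = 7.06e-05, adjusted exact p = 0.46 over all 8-letter words). The chromosomes differed in the word too, since AGACGCAG occurred 29.4 times per Mb of X and 64.1 times per Mb of autosome. Relative to consecutive 101 bp windows that tile the same chromosomes, AGACGCAG was 33.2 times as frequent in the members and 35.7 times as frequent in the autosomal peaks. On the same measure the called word CGCAGA was 5.38 times as frequent in the members and 10.1 times as frequent in the autosomal peaks. Within promoter peaks CGCAGA was in 13.2% of members and 23.6% of autosomal peaks, and outside them in 7.76% and 24.9%, which are given without a test because the word was chosen on the same peaks. The call for CGCAGA was lost with windows of 25 bp (adjusted exact p = 0.20) or 100 bp (adjusted exact p = 0.16) to each side and among the 538 strongest peaks (adjusted exact p = 0.55), and without the mdl-1 window 2 words were called.

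The 4 strongest members with CGCAGA are printed to show this shared word, in capitals on either strand.
Near C30E1.4 (rank 44), chrX:16929712-16929812: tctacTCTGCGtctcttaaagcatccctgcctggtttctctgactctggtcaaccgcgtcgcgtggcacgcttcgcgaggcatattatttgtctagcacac
Near nhr-14 (rank 55), chrX:8477602-8477702: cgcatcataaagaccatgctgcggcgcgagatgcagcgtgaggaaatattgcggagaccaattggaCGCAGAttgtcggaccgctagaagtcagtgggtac
nhr-1 promoter (rank 125), chrX:17513724-17513824: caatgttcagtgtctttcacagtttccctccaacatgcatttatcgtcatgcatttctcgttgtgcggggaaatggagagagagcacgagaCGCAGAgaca
rbc-1 promoter (rank 180), chrX:14610517-14610617: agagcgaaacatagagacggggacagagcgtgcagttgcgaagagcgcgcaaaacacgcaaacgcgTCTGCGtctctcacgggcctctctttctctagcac
The windows of ranks 44, 125 and 180 held CGCAGA overlapping AGACGCAG, and that of rank 55 held it alone. The rank 125 peak was the promoter peak of nhr-1, and the rank 180 peak that of rbc-1.

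No 6-letter word passed as more frequent in the members than in the autosomal peaks, so that 0% of words were called in that direction. At an unadjusted p under 0.05 there were 154 words that differed, 85 of them higher in members. The strongest of those were CCCTTC, in 11.8% of members and 4.15% of autosomal peaks, and CCCTGC, in 10.5% and 3.32%, each with an adjusted exact p of 0.0757. On the other strand they read GAAGGG and GCAGGG, the ends of the longer words described next.

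In the 8-letter scan, GCGCAGGG was found in 10 members, 4.22% (2.04 to 7.62), and in 0 of 602 autosomal peaks without the E-box, which allows a share of up to 0.498% by the rule of 3 counts and of 0.611% by the exact 95% bound (adjusted exact p = 0.0463 over 32870 words). TCGCGCAG, which overlaps it, gave the same counts, and the 2 calls are 0.00608% of the words. No window of an X peak with the E-box, of an autosomal peak with it, or of a member's flank held GCGCAGGG. Replicate 1's own list gave 10 of 238 members against 0 of 620 autosomal peaks (adjusted exact p = 0.0771) and replicate 2's gave 11 of 245 against 0 of 626 (adjusted exact p = 0.0243). The call thus rests on few peaks and was past the threshold in 1 of the 2 lists, and with windows of 25 bp to each side (adjusted exact p = 0.15) or among the 538 strongest peaks (adjusted exact p = 0.93) it was lost. It is this word that the recruitment motif of the dosage compensation complex includes as its core.

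The 10 sites are aligned below with 12 bases on each side, in the orientation that reads GCGCAGGG, which is in capitals. Where a window held the word more than once, the site closer to the summit is shown.
Near F20B6.9 (rank 26), chrX:4209254-4209285, minus strand: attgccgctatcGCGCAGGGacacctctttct
nspc-17 promoter (rank 43), chrX:14525888-14525919, minus strand: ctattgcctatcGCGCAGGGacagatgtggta
Near W02H3.3 (rank 47), chrX:11094214-11094245, minus strand: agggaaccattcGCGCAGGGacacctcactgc
In mom-1 (rank 56), chrX:6296536-6296567, plus strand: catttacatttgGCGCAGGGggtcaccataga
Near xol-1 (rank 63), chrX:8036389-8036420, minus strand: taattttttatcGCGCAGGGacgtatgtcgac
In Y41G9A.17 (rank 111), chrX:2997111-2997142, minus strand: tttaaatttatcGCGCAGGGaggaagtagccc
Near gtr-1 (rank 167), chrX:806662-806693, plus strand: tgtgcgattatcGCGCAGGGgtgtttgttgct
ins-39 promoter (rank 320), chrX:1345044-1345075, plus strand: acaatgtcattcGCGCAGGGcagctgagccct
Near col-185 (rank 749), chrX:13514546-13514577, plus strand: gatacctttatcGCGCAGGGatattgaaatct
In Y15E3A.5 (rank 965), chrX:15340919-15340950, minus strand: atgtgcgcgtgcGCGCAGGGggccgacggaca
Beyond the word itself, the base just before it was C in 9 of 10 sites and the base before that was T in 9, with both in 8. The base just after it was A in 6. At 6 of the 10 sites the word was centred within 10 bp of the summit. The preceding T and C are part of TCGCGCAG, which the same scan called on these peaks, so they add no separate evidence.

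The related word GCGAAGGG was in 8 members and 0 autosomal peaks without the E-box (exact p = 3.72e-05, adjusted exact p = 0.31). It was found in 5 windows together with GCGCAGGG, those of ranks 26, 43, 47, 56 and 111. The union was 13 members, 5.49% of all. With any base allowed at the fourth place (GCGNAGGG) the count was 16 members, 6.75%, against 5 autosomal peaks, 0.83%.

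Most of these 13 members were strong, and most lay outside promoter windows. The 4 weakest, of ranks 538, 590, 749 and 965, had signals of 72.5, 69.5, 59.6 and 51.6, against a median of 71.9 for all members. The median signal of the 10 with GCGCAGGG was 185, with 72.0 in replicate 1 and 96.7 in replicate 2. For the other 227 members these medians were 71.2, 40.3 and 37.1. Of the 13, 8 were among the 50 strongest members, and 12 were in both replicates' 1076 strongest regions. Summits were intergenic for 9 and intronic for 4, and 3 lay in a promoter window, those of nspc-17, ins-39 and set-20. Outside promoter windows GCGCAGGG was in 8 of 116 members and 0 of 293 autosomal peaks, and inside them in 2 of 121 and 0 of 309, again without a test. None of the 13 lay within 20 kb of mdl-1.

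Values for single members with both words follow. The peak near F20B6.9 had a signal of 296, with 153 and 139 in the replicates. The peak in the nspc-17 promoter had 237, with 141 and 101. The peak near W02H3.3, 3959 bp from its start, had 232, with 117 and 116. Replicates were close in these 3. The peak in the mom-1 intron had 216 (99.0 and 110), and the one in Y41G9A.17 had 169 (74.0 and 92.3). Those with GCGCAGGG alone ranged from 201 near xol-1 to 51.6 in Y15E3A.5, which ranked 1933 in replicate 1.

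The share of the word's copies that lay inside a peak differed between X and the autosomes. GCGCAGGG occurred at 81 sites on X, 4.57 per Mb, and at 233 sites on the autosomes, 2.82 per Mb. Of the X sites, 18, or 22.2%, lay inside an optimal peak, and all 18 were in peaks of the members, 16 peaks in all. Of the autosomal sites, 3, or 1.29%, lay in an optimal peak. In the pooled list of 30000 regions the shares were 38.3% and 10.7%. For GCGAAGGG, 7.14% of 140 X sites and 0.611% of 491 autosomal sites lay in an optimal peak. For AGACGCAG the shares were closer, 9.79% of 521 X sites and 4.73% of 5291 autosomal sites. These are counts from the list in which the word was found, so they carry no test, and occupancy by the dosage compensation complex was not measured here.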

How the data were processed

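The data were narrow peak lists of 2 biological replicates. Per the deposited read-me files, lists of 30000 regions were made for each replicate and for the pooled replicates, and the authors kept 1076 peaks after thresholding on the irreproducible discovery rate. Each region has a deposited signal value, on the authors' own unstated scale, and a deposited −log10 q-value, at its maximum of 3.11 for 139 members. The sources used here do not give the aligner, peak caller or thresholds, and read depth is unknown. Only the ce11 lists were used.

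Summit windows were read from the RefSeq genome of the ce11 assembly, and genes from Ensembl release 115. Of the symbols in 23 gene lists, 3 matched no gene (lin-4, let-7 and tni-2). Words were counted on both strands as present or absent per window. Tests were two-sided exact McNemar and Fisher tests with Benjamini-Hochberg adjustment over all features of a scan (scipy 1.17.1), checked on simulated presence tables. Intervals are Clopper-Pearson 95% intervals and cover counting error only; a count of 0 also has the limit of 3 counts of the total. Replicate signals, ranks and summit distances of members come from each replicate's full list. Annotation and word counts per replicate come from the 1076 strongest regions of each replicate's own list. Named members were the 20 strongest, and up to 4 genes per list with the strongest promoter member. Named words were taken from the 6 with the smallest p in each 6-letter scan and the 6 with the smallest p among words higher at summits. The CANNTG words were added, and not all words of these sets are printed. For 8 letters they were the words past the threshold and those overlapping them. Sequences follow the same rule, using the first word that was higher at summits. GCGAAGGG, which did not pass, and GCGNAGGG fell outside the rule for words and were chosen on the same peaks. The members, lists and tests were chosen with earlier results of these data known, and the 8-letter scan and the split by promoter were added after seeing the values.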

Additional observations from a re-analysis of the deposited data

How the results depend on the processing

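The promoter difference, -0.27 percentage points and never past the threshold, reversed with the 500 bp promoter window (2.80) and without the mdl-1 window (1.33), and ranged from -0.70 to 2.29 when 1 replicate was left out. The tRNA difference did not pass among the 538 strongest peaks (1.69). Words higher at member summits fell to 53 in 25 bp windows and to 40 among the strongest peaks. Words lower fell to 64 and 52, and ranged from 88 to 118 when 1 replicate was left out. Words that differed from autosomal peaks numbered 0 in 25 bp windows, 3 in 100 bp windows, 0 among the strongest peaks, 2 without the mdl-1 window and 3 to 4 in single replicates. Other E-boxes called were 2 in 100 bp windows and 0 against the right flank. X genes reached were 56 among the strongest peaks. The ratio of member to autosomal median signal, 1.02, was 1.0005 without the mdl-1 window and 1.03 to 1.04 in single replicates. GCGCAGGG did not pass in 25 bp windows (3.56 points), nor among the strongest peaks (6.78), and gave 4.20 to 4.49 in single replicates, and CGCAGA did not pass in 25 bp windows (-7.85), in 100 bp windows (-11.6) or among the strongest peaks (-17.1). Members in both replicates were 59.5% with summits within 100 bp, 100% over all regions and 97.5% among the strongest peaks. The strongest peaks and the narrow windows hold fewer peaks or fewer letters by construction. The other 53 values kept direction and side of the threshold, or for counts and levels stayed within 1.5 times or within the spread between replicates. The unknown depth limits weak peaks: 12 members were among the 1076 strongest of neither replicate. No paired analysis was possible because there was 1 group.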
